A study of Mus musculus with 8 samples.

Results

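Described here are 10 genes of the bone morphogenetic protein (BMP) and ALK1 pathway, the rows Eng, Acvrl1, Bmpr2, Smad6, Smad7, Id1, Id2, Id3, Tmem100 and Bmp4 of the deposited table, which make 10 of its 28014 genes. They were taken by name, as co-receptor, receptors, inhibitory Smads, target genes and a ligand, and were measured in all 10 annotated cell types and both genotypes. They, and a wider list used below, were chosen with earlier results of these data known. Shares over all genes are therefore set beside their counts as a description and not as a test. The cells were CD31+ cells sorted from the aorta-gonad-mesonephros (AGM) region of mouse embryos at embryonic day 10.5, where hematopoietic cells bud from arterial endothelium, and RNA molecules were counted as UMIs by CITE-seq. The cell types of most interest are arterial endothelial cells (aEC), pre-hemogenic endothelium (pre-HE) and cells of the endothelial-to-hematopoietic transition (EHT), and the remainder are 4 venous-type endothelial clusters (vEC_1 to vEC_4), erythro-myeloid progenitors (EMP), Myeloid cells and Megakaryocytes. Wild type (WT) was represented by 5 libraries, of strain C57BL/6 by GEO's labels. The Meis1-flox/VE-Cre group (genotype label Meis1-knockout, here Mff_Cre) was represented by 3 libraries, in which a Cre transgene under the VE-cadherin promoter deletes exon 8 of floxed Meis1 in cells that have passed through endothelium. Each library was a pool of 2 to 5 embryos, so single animals cannot be told apart. All groups were collected at the same stage and through the same CD31 gate, and the Cre transgene is present in the Mff_Cre group alone.

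In this pathway, BMP9 and BMP10 carried in blood, and BMPs made in tissue such as Bmp4, bind complexes of a type II receptor (Bmpr2) and a type I receptor, which in endothelium is chiefly ALK1 (Acvrl1), with endoglin (Eng) as a co-receptor. The active receptors phosphorylate Smad1 and Smad5, which enter the nucleus with Smad4 and switch on target genes, among them the Id genes, whose proteins hold basic helix-loop-helix factors off DNA, and Tmem100, a membrane protein of arterial endothelium. Smad6 and Smad7 are also induced by the pathway and block it, Smad6 mainly the BMP branch and Smad7 both the BMP and TGF-β branches.

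The libraries were not of equal depth. Cells held a median of 26572 to 28553 UMIs in WT 1 to 4, but 12721 in WT 5 and 9612 to 14895 in Mff_Cre 1 to 3, so most of the genotype contrast runs between deep and shallow libraries. The cells of WT 5 also carry names beginning with Mf, unlike those of WT 1 to 4, although GEO's labels give it as WT. Since the study also uses WT for littermates that lack Cre, the genetic background of WT 5 was not tested against that of WT 1 to 4. Values without WT 5, and against WT 5 alone, therefore stand beside the genotype values in aEC, pre-HE and EHT and beside the values described singly in other types. Against WT 5 alone the WT arm is 1 library, so those differences are given as values with no p. Some genotype values below were called with a library left out. The share of all genes called in those fits is not given, so such calls describe the named gene only. Of 15135 distinct barcodes 33 occurred in more than 1 library, 6 of them with the same cell type. Levels are given as CPM, UMIs of a gene per 1000000 UMIs, where the cells of one library and type were added up if there were 10 or more of them. The pre-HE sums were small, with 11 to 87 cells and 154254 to 1264693 UMIs in WT and 15 to 33 cells and 113105 to 208942 UMIs in Mff_Cre, whereas the aEC sums held at least 1093705 UMIs. Only 5 Megakaryocytes came from WT 3, so that library has no value there. All 6 endothelial markers were detected in aEC and pre-HE, with a summed level of 1965 to 2482 and 3238 to 3777 CPM in WT, and the 5 hemogenic markers summed to 736 to 829 CPM in EHT against 12.9 to 32.7 CPM in pre-HE. Meis1 stood at 38.7, 51.4, 32.4, 23.7 and 12.9 CPM in the pre-HE of WT 1 to 5 and at 29.7, 9.57 and 53.0 CPM in that of Mff_Cre 1 to 3, and in EMP at 77.0, 60.3, 56.7, 69.4 and 64.9 against 20.9, 36.4 and 25.4 CPM. Reads at the 3′ end of a transcript do not show whether an internal exon was removed, so these levels do not check the deletion.

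Promoter sequence was held for 6 of the 10 members (Bmpr2, Eng, Id2, Id3, Smad6 and Bmp4) in the RefSeq table of build GRCm38.p6, the same reference sequence as the mm10 used for counting. Shown are 3 of them, a receptor and 2 Id targets, so that their bases can be compared. Each was higher in pre-HE than in aEC, although Id2 was highest in vEC_4. Each run is the 250 bases before the annotated start, written 5′ to 3′ on the strand of the gene, at chr1:59764029-59764278, plus strand (Bmpr2), chr12:25096093-25096342, minus strand (Id2) and chr4:136143572-136143821, plus strand (Id3). Capitals mark GGCGCC, letters found in BMP-responsive elements, and GTCT or its reverse complement AGAC, the core that Smad proteins bind.

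Bmpr2: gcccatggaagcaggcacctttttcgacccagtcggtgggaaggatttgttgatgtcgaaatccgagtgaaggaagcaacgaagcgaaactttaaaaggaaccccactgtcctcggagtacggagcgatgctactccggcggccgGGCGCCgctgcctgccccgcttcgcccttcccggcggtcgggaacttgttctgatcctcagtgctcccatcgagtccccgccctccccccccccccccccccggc
Id2: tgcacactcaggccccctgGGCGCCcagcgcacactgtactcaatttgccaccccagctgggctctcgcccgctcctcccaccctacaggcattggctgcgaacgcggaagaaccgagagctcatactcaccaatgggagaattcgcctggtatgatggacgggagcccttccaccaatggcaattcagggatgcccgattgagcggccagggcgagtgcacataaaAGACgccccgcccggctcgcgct
Id3: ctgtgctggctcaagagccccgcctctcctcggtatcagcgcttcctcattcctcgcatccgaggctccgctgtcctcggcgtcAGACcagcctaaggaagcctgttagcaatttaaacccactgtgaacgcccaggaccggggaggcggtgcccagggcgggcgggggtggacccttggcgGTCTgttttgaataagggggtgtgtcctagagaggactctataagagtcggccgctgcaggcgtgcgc

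The Bmpr2 and Id2 runs each held GGCGCC once, and the other 4 members with a sequence held none. Of the 32851 promoters of the table, 9.59% held at least 1 match in their own 250 bases. GTCT, searched on both strands, was found 2 times in the Id3 run, once in that of Id2 and not in that of Bmpr2, and 82.9% of all promoters held it. These are matches of letters and not measured sites.

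Across the 10 cell types of WT, 8 of the 10 members had their highest mean level in pre-HE, and the other 2, Id2 and Bmp4, in vEC_4. The share of all genes that peak in pre-HE is not given, so this count describes the members only. Among the receptors, Eng averaged 270.0 ± 35.0 CPM in pre-HE (SD, n = 5), 155 ± 9.89 in vEC_4 and 149.8 ± 16.2 in aEC, then 48.7 ± 10.8 in EHT and at most 22.3 ± 7.02 (n = 4) in the 3 blood lineages. The pre-HE range of Eng lay above that of every other type, the aEC and vEC ranges overlapped with their neighbours in the order, and EHT lay between the endothelial and blood cells without touching either. Acvrl1 ran from 114 ± 24.0 CPM in pre-HE and 78.5 ± 8.94 in aEC to 6.35 ± 2.89 in EHT, and the lowest of its values in pre-HE overlapped those of aEC. Bmpr2, which many cell types use, was less restricted to endothelium, with 135 ± 25.3 CPM in pre-HE, 67.6 ± 18.2 in aEC, 23.9 ± 6.66 in EHT and 25.7 ± 1.77 in Myeloid cells, with overlapping ranges in the last pair.

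The inhibitory Smads stood further above the other types in pre-HE than the receptors did. Smad6 averaged 121 ± 43.6 CPM there (SD, n = 5) and 12.2 ± 7.99 in the next type, vEC_4, which did not differ beyond its spread from EHT (10.4 ± 5.30) or aEC (8.65 ± 4.54). Smad7 averaged 249 ± 72.0 CPM in pre-HE and 67.4 ± 43.2 in vEC_4, and these ranges touched only because WT 4 stood at 144 CPM in vEC_4 and WT 5 at 122 CPM in pre-HE. Without those 2 libraries the vEC_4 values were 56.5, 48.7 and 50.3 CPM and the pre-HE values 265, 275 and 298 CPM.

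The targets did not share one pattern. Tmem100 was close to a switch, at 657 ± 58.7 CPM in pre-HE (SD, n = 5) and no more than 6.06 ± 4.59 in any other type, with 0 UMIs in the EMP of WT 1, 2, 3 and 5. A count of 0 allows up to 3 UMIs, which is 0.699 to 1.45 CPM in those sums, a limit that covers counting error only. Id1 followed the order pre-HE (814 ± 124), aEC (291 ± 81.4), vEC_1 (200.5 ± 23.1) and was still 105 ± 16.9 CPM in EMP. Id3 was high in all endothelium, at 773 to 888 CPM in the means of aEC and the vEC clusters, and 1788 ± 186 in pre-HE, against 147 ± 66.2 in EHT and 18.1 ± 19.3 in EMP. Id2 had the order vEC_4 (226 ± 24.9), vEC_3 (155 ± 13.2), pre-HE (151 ± 40.8), vEC_2 (92.6 ± 6.94), vEC_1 (69.2 ± 12.5) and aEC (34.2 ± 7.11), in which vEC_3 and pre-HE overlapped. Bmp4, the ligand, was likewise highest in vEC_4 (86.9 ± 31.5) and vEC_3 (51.8 ± 23.2) and close to undetected in aEC (1.05 ± 0.457), EMP (1.11 ± 0.789) and Myeloid cells (1.17 ± 1.51), which overlapped.

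**Figure D1:**
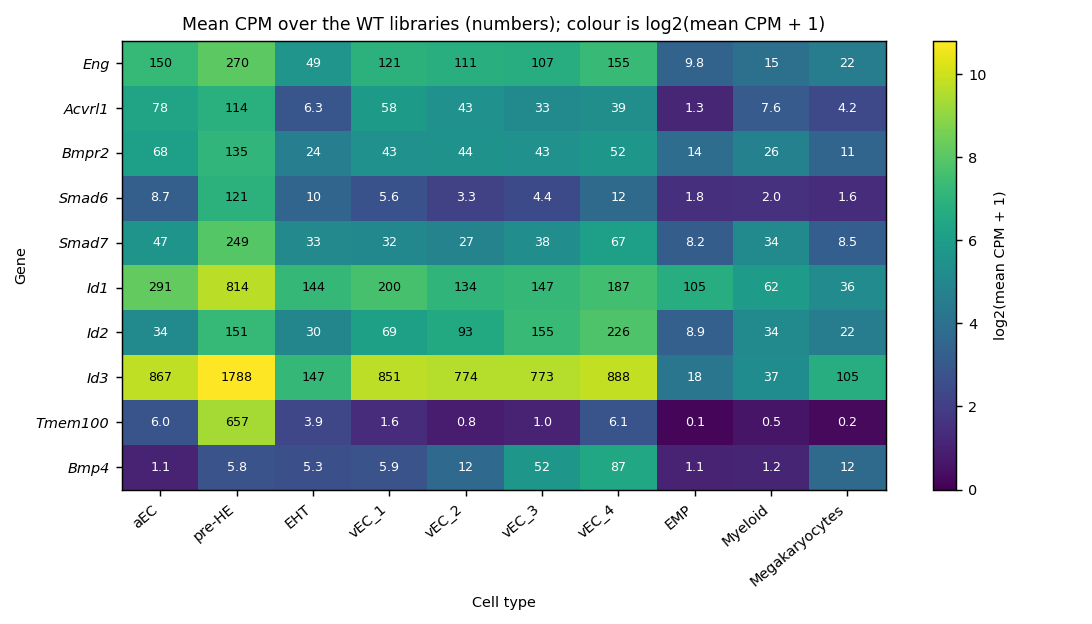
Mean level of each member (rows) in the 10 cell types of WT (columns), in CPM as printed in each cell, with colour on the log2(mean CPM + 1) scale, over 5 libraries (4 for Megakaryocytes). The pre-HE column is the brightest for 8 genes, and Id2 and Bmp4 peak in vEC_4 at 226 and 86.9 CPM.

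The first step of the trajectory compares pre-HE with aEC within the WT libraries, and asks which parts of the pathway change as arterial endothelium takes on the pre-hemogenic state. All 9 members that could be tested rose, by 0.50 to 6.32 on the log2 scale with a median of 1.34, and Bmp4 was too sparse for the filter. Over all genes tested, 42.1% were called, 21.1% as higher, and the median was 0.01. The count of 9 was the same without any 1 library, WT 4 and WT 5 included. The authors defined the cell types on these RNA data, so that these differences describe the 2 clusters and are no independent test of them. As the members were chosen with earlier results of these data known, their count and median beside those of all genes are no test either. The test was edgeR's quasi-likelihood test, blocked by library, with p-values adjusted over all genes by Benjamini-Hochberg and calls at an adjusted p under 0.1. Fold changes and their SEs are on the log2 scale.

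Of the receptors, Eng measured 159, 153, 122, 153 and 162 CPM in the aEC of WT 1 to 5 and 286, 317, 239.9, 275 and 232 CPM in their pre-HE. All 5 pre-HE values lay above all 5 aEC values, and the log2 fold change was 0.76 (SE 0.11, adjusted p 2.96e-07). Bmpr2 measured 81.3, 53.4, 53.9, 92.7 and 56.6 CPM in aEC and 177, 121, 110.2, 133 and 135 CPM in pre-HE, again without overlap, a change of 0.84 (SE 0.14, adjusted p 5.25e-06). Acvrl1 rose least of the members, from 77.2, 79.6, 76.8, 91.9 and 66.9 CPM to 129, 107, 77.8, 141 and 116 CPM. Its groups overlapped, since the pre-HE of WT 3, a sum of 11 cells with 12 Acvrl1 UMIs, matched aEC, and the change was 0.50 (SE 0.14, adjusted p 0.00415). With Bonferroni adjustment it was not called.

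The inhibitory Smads moved much further than the receptors. Smad6 measured 9.45, 6.46, 7.31, 16.0 and 4.04 CPM in the aEC of WT 1 to 5 and 164, 145, 136, 109.9 and 51.5 CPM in pre-HE, so that the pre-HE mean was 14.0 times the aEC mean and the log2 fold change 3.49 (SE 0.20, adjusted p 2.40e-18). Smad7 went from 45.1, 20.6, 31.1, 116 and 22.5 CPM to 265, 275, 298, 285 and 122 CPM, 5.30 times in the means or 8.07 times without WT 4, with a log2 fold change of 2.28 (SE 0.19, adjusted p 2.48e-13). Only Smad7 came near an overlap, with the lowest pre-HE value (WT 5) just above the highest aEC value (WT 4). WT 4 was the highest library for both genes in aEC and WT 5 the lowest for both in pre-HE.

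Of the targets, Tmem100 changed most. It measured 1.89, 2.35, 0.914, 21.0 and 3.59 CPM in the aEC of WT 1 to 5 and 745, 658, 596, 611 and 676 CPM in pre-HE, 110.4 times in the means, and the log2 fold change was 6.32 (SE 0.24, adjusted p 1.93e-24). Without WT 4 the ratio of the means was 306. The aEC value of WT 4 came from 142 UMIs in 45 of 319 cells, 16 of which held at least 3 UMIs and 1 as many as 18, whereas no aEC cell of the other WT libraries held more than 3. The median pre-HE cell of WT 4 held 8 Tmem100 UMIs.

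Id1 rose from 307, 286, 165, 391 and 308 CPM to 892, 892, 895, 610.4 and 779 CPM, with no overlap and a change of 1.34 (SE 0.12, adjusted p 2.15e-12). Id2 rose from 30.9, 24.4, 34.7, 43.2 and 37.7 CPM to 168, 177, 194, 112 and 103 CPM, also with no overlap, a change of 1.95 (SE 0.17, adjusted p 9.78e-13). Id3, already high in aEC at 839, 988, 663, 978 and 865 CPM, stood at 2035, 1811, 1718, 1849 and 1526 CPM in pre-HE, a change of 0.95 (SE 0.08, adjusted p 1.61e-13). Among the Id genes the pre-HE mean was thus 2.79, 4.42 and 2.06 times the aEC mean for Id1, Id2 and Id3.

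Bmp4 was nearly absent along this axis. It had 16 UMIs in all WT aEC and 17 in all WT pre-HE, the latter as 4, 0, 2, 11 and 0 in WT 1 to 5, of which 11 lay in WT 4. In pre-HE the libraries at 0 UMIs allow up to 14.0 CPM in WT 2 and 19.3 CPM in WT 5, above the levels measured in the others. With no filter on low counts the step was 2.49 (adjusted p 0.00134), and it was 3.05 (adjusted p 1.32e-05) when only the libraries with at least 20 pre-HE cells, WT 1 and WT 4, were used, but Bmp4 was higher in pre-HE in only 3 of the 5 libraries.

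Smooth muscle markers moved with the same step. Their summed level was 13.9 to 25.3 CPM in WT aEC and 163 to 863 CPM in WT pre-HE, with 4 of 5 genes detected in each and Myh11 at 0 in pre-HE. The summed level of 7 arterial genes was 398 to 666 CPM in aEC and 2762 to 3786 in pre-HE, that of 6 mesenchymal genes 0.898 to 3.15 and 14.0 to 47.9 CPM, with Pdgfrb and Postn at 0 in pre-HE. That of 8 genes of the dissociation response was 445 to 618 and 309 to 845 CPM. The part of these in the changes of the members was not tested.

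**Figure D2:**
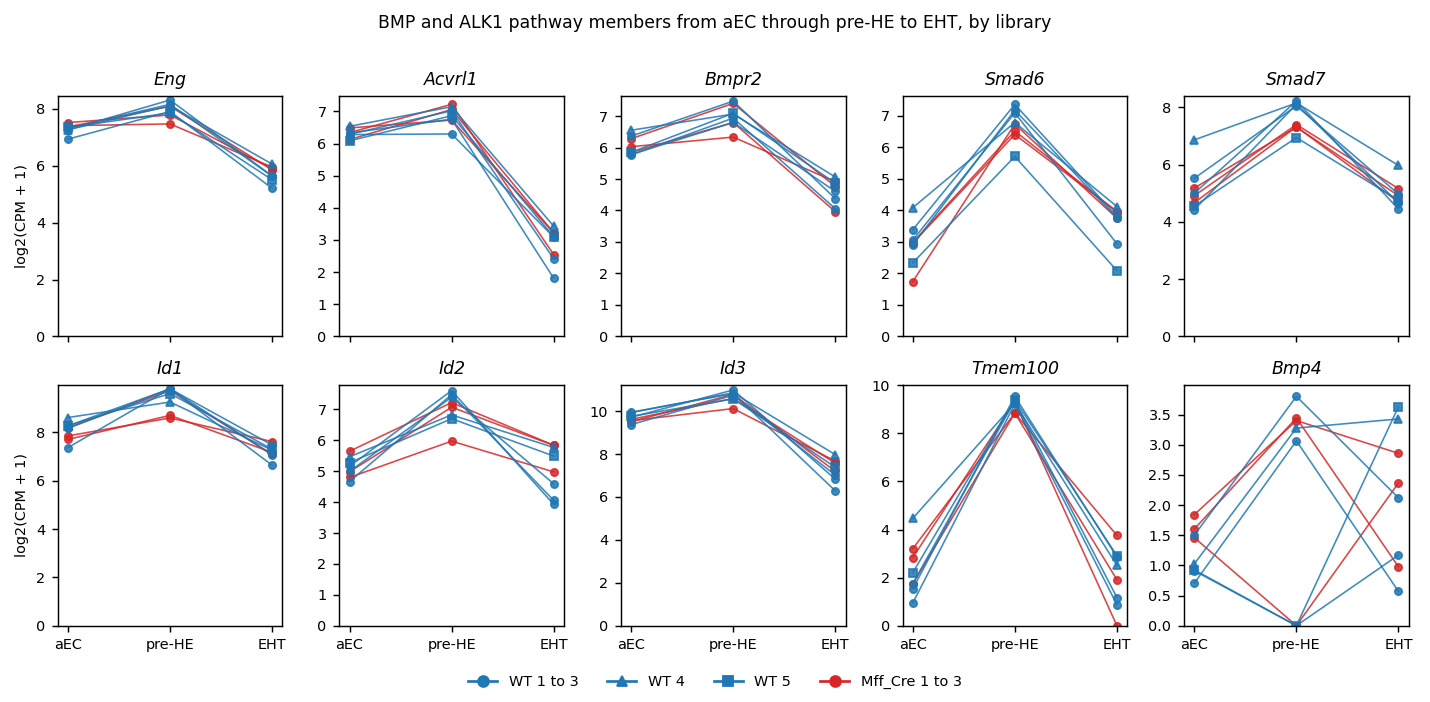
Level of each member as log2(CPM + 1) in the aEC, pre-HE and EHT sums of each library, joined by lines (blue WT, red Mff_Cre, with WT 4 as triangles and WT 5 as squares). Every line for 9 genes peaks at pre-HE, and Tmem100 climbs from at most 21.0 CPM in aEC to at least 459 CPM in pre-HE, while the lines of Bmp4 cross without order.

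The second step compares EHT with pre-HE and asks which of these genes are kept as cells turn hematopoietic. All 9 tested members fell, with log2 fold changes of -7.20 to -2.18 and a median of -2.83, against a median of 0.04 over all genes, of which 61.6% were called and 30.0% as lower. For each of the 9, no EHT value of any WT library reached a pre-HE value. How many of all genes were parted in this way is not given here. The number of members called was again 9 without any 1 library, and this contrast, too, is between clusters drawn from the same RNA.

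Acvrl1 fell most among the receptors, to 4.34, 2.51, 7.52, 9.77 and 7.60 CPM in the EHT of WT 1 to 5, a change of -4.15 (SE 0.24, adjusted p 2.55e-16). Eng fell to 48.7, 48.9, 35.9, 65.7 and 44.5 CPM, a change of -2.40 (SE 0.13, adjusted p 7.65e-17), and Bmpr2 to 19.8, 15.7, 23.4, 32.5 and 28.2 CPM, a change of -2.47 (SE 0.18, adjusted p 1.49e-13). Mean CPM in EHT was therefore 18.0-fold lower than in pre-HE for Acvrl1, 5.54-fold lower for Eng and 5.66-fold lower for Bmpr2.

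Smad6 fell to 13.0, 12.5, 6.69, 16.4 and 3.26 CPM, a change of -3.39 (SE 0.21, adjusted p 2.85e-15), and Smad7 to 30.4, 24.4, 20.9, 61.8 and 26.1 CPM, a change of -2.83 (SE 0.17, adjusted p 1.14e-15). WT 4 was the highest of the 5 libraries for each. Tmem100 fell to 6.27, 1.25, 0.836, 4.69 and 6.52 CPM, a change of -7.20 (SE 0.18, adjusted p 1.63e-25), with 3, 2, 1, 4 and 6 cells holding any UMI among the 64, 45, 31, 68 and 118 EHT cells of WT 1 to 5.

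The Id genes fell to different floors. Id3 dropped to 113, 77.0, 129, 251 and 167 CPM (-3.62, SE 0.14, adjusted p 2.11e-20), Id1 to 177, 99.0, 133, 153 and 157 CPM (-2.43, SE 0.12, adjusted p 4.05e-18) and Id2 to 23.1, 15.7, 14.2, 53.6 and 44.0 CPM (-2.18, SE 0.24, adjusted p 3.25e-09). In EHT, Id2 split the libraries, with WT 4 and WT 5 at 44.0 CPM or more and WT 1 to 3 at 23.1 CPM or less, and Id3 was likewise higher in WT 4 and WT 5 than in the other three. Bmp4 showed the same division, at 0.482, 1.25, 3.34, 9.77 and 11.4 CPM in the EHT of WT 1 to 5, with 25 and 21 UMIs in WT 4 and WT 5 and 1 to 4 elsewhere. These divisions were seen in the values and were not tested.

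Set beside aEC, the EHT levels were of 2 kinds, given here as values since this pair was not fitted. No share over all genes stands beside them. Eng, Acvrl1, Bmpr2 and Id3 were lower in EHT than in aEC in 5 of 5 WT libraries with no overlap, with aEC means 3.07, 12.4, 2.83 and 5.89 times the EHT means. Id1 was also lower in 5 of 5 libraries, with an aEC mean 2.03 times that of EHT and overlapping ranges. Smad6, Smad7, Id2 and Tmem100 overlapped between EHT and aEC, with EHT means 1.20, 0.696, 0.881 and 0.657 times the aEC means and 3, 2, 2 and 2 of 5 libraries higher in EHT. For Tmem100 the direction rests on WT 4, without which the EHT mean was 1.70 times the aEC mean.

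A sum does not show how many cells carry a transcript, so each cell was also thinned to 5000 UMIs, which left out 24 of 8423 WT cells, none of them pre-HE. The share of WT cells with at least 1 Tmem100 UMI was 1.82% ± 3.21 in aEC (SD over 5 libraries), 85.1% ± 3.17 in pre-HE and 1.12% ± 1.10 in EHT, and without WT 4 the aEC share was 0.40% ± 0.475. Smad6 was counted in 3.94% ± 3.33, 47.7% ± 11.9 and 8.34% ± 6.09 of cells, with 2.50% ± 0.956 of aEC without WT 4, and Smad7 in 18.4% ± 12.3, 67.4% ± 10.6 and 13.3% ± 3.52. Id3 was counted in nearly every endothelial cell, 89.0% ± 4.14 of aEC and 98.7% ± 2.41 of pre-HE, but in 26.2% ± 7.28 of EHT cells.

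Unlike Id3, Id1 remained frequent in EHT, where it was counted in 46.1% ± 6.85 of cells against 48.7% ± 9.69 in aEC and 84.6% ± 4.59 in pre-HE. Eng was counted in 49.0% ± 2.90, 76.3% ± 7.43 and 25.3% ± 4.85 of aEC, pre-HE and EHT cells, Acvrl1 in 31.2% ± 4.15, 46.0% ± 2.38 and 5.58% ± 6.02, and Bmpr2 in 29.6% ± 2.52, 43.8% ± 15.2 and 14.9% ± 7.21. As a level to read these against, Myeloid cells, which should lack Tmem100, had a UMI of it in 0.241% ± 0.339 of thinned WT cells. The library values of EHT and Myeloid cells overlapped for Tmem100, so its EHT share as a whole is not told apart from that level. Before thinning, 2 EHT cells of WT 1, 2 of WT 4 and 1 of WT 5 held at least 3 Tmem100 UMIs. The most in a cell was 7, 6 and 6 there. Whether these few cells express it was not tested. Before thinning, the median UMIs per cell in WT were 18343 in aEC, 12884 in pre-HE, 25592 in EHT and 39173 in Myeloid cells, and the unthinned shares were 5.22%, 91.9% and 4.66% for Tmem100 and 69.2%, 94.9% and 83.0% for Id1 in aEC, pre-HE and EHT.

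**Figure D3:**
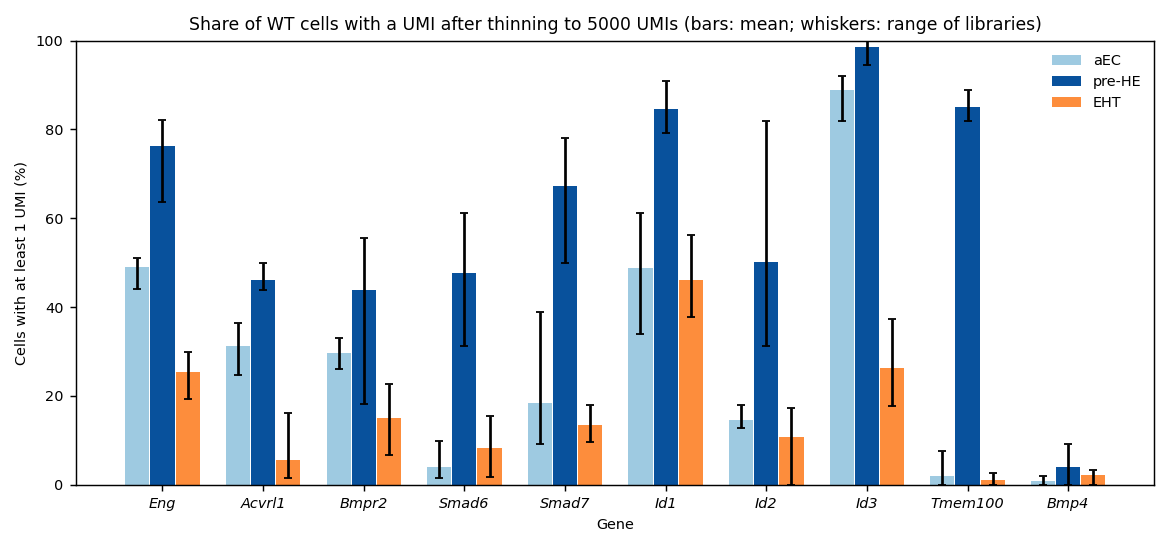
Share of WT cells with at least 1 UMI of each member after thinning to 5000 UMIs, as the mean of 5 libraries (bars) with the range of libraries (whiskers), in aEC, pre-HE and EHT. Pre-HE is highest for each gene, Tmem100 and Smad6 are rare in the other 2 types, and Id1 is nearly as frequent in EHT as in aEC.

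Arterial and venous-type endothelium were compared by setting aEC against the pooled vEC clusters in WT. All 10 members were called, 8 higher in aEC and 2 lower, where 59.7% of all genes were called, 29.2% as higher and 30.5% as lower. Among the higher ones, Tmem100 differed by 2.05 (SE 0.27, adjusted p 6.64e-07), Id1 by 0.92 (SE 0.09, adjusted p 2.17e-09), Acvrl1 by 0.87 (SE 0.06, adjusted p 1.20e-11), Smad6 by 0.74 (SE 0.14, adjusted p 1.11e-04) and Bmpr2 by 0.67 (SE 0.09, adjusted p 3.63e-07). Eng (0.39, SE 0.05, adjusted p 8.75e-07), Smad7 (0.39, SE 0.11, adjusted p 0.00536) and Id3 (0.14, SE 0.05, adjusted p 0.0213) differed less. Smad7 lost its call without WT 4, whose aEC held 116 CPM of it, and with DESeq2, and both Smad7 and Id3 lost it without the block by library. Tmem100 in aEC was also highest in WT 4, at 21.0 CPM against 0.914 to 3.59 in the others. The pool does not speak for vEC_4. Its means were 155, 12.2, 67.4, 888 and 6.06 CPM for Eng, Smad6, Smad7, Id3 and Tmem100, against 149.8, 8.65, 47.0, 867 and 5.95 in aEC, with overlapping ranges. For Acvrl1, Bmpr2 and Id1 the vEC_4 mean was below that of aEC. Id2 and Bmp4 were lower in aEC than in the pool, at -1.75 (SE 0.09, adjusted p 2.34e-14) and -4.83 (SE 0.19, adjusted p 1.86e-16).

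Across the vEC clusters both genes formed a graded series. Id2 measured 67.4, 62.7, 54.9, 72.3 and 88.5 CPM in the vEC_1 of WT 1 to 5, 98.8, 84.5, 86.3, 93.7 and 99.5 in vEC_2, 156, 155, 149, 139 and 175 in vEC_3 and 214, 255, 195, 218 and 247 in vEC_4, with overlap only between vEC_1 and vEC_2. Bmp4 measured 5.36, 4.81, 4.53, 4.41 and 10.3 CPM in vEC_1, 9.13, 11.3, 10.5, 9.58 and 18.4 in vEC_2, 37.0, 41.3, 45.6, 42.1 and 93.0 in vEC_3 and 69.5, 86.2, 71.9, 65.5 and 142 in vEC_4, rising in that order within each of the 5 libraries. The summed level of 4 venous markers was also graded over these clusters, from 394 to 569.9 CPM in vEC_1 to 778 to 1183 in vEC_4. Acvrl1 was instead highest in vEC_1, with means of 57.7, 42.6, 33.5 and 39.4 CPM in vEC_1 to vEC_4, although vEC_3 and vEC_4 did not differ beyond their spread.

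Likeness of pattern was taken as Pearson's r of log2(mean CPM + 1) over the 10 cell types of WT, over the genes with a mean of at least 10 CPM in some type. It is a description over 10 points that share libraries. Smad6 and Tmem100 were alike among the members (r = 0.98), as were Eng and Id3 (0.99), Eng and Acvrl1 (0.95) and Bmpr2 and Smad7 (0.93), while Bmp4 was most like Id2 (0.74) and had 0.02 with Tmem100. Over all genes, those most like Tmem100 were Zfp667 (0.994), Unc13b (0.988) and Htra1 (0.984), and those most like Smad6 were Zfp667 (0.987), Dag1 (0.985) and Tmed4 (0.984), so that Zfp667 led both lists. Smad7 was most like Mapk3 (0.988), Mcfd2 (0.986) and Faf2 (0.966). For Eng they were Ctnnb1 (0.997), Sepn1 (0.996) and Cd93 (0.994), for Acvrl1 Gpr4 (0.985), Spata6 (0.985) and Ctnnbip1 (0.985) and for Bmpr2 Rgs3 (0.984), Pik3c2a (0.983) and Extl3 (0.983). Id3 was nearest to Hspg2 (0.999), Lamb1 (0.998) and Pxdn (0.997). Id1 was nearest to Ext2 (0.979), Cux1 (0.977) and 0610011F06Rik (0.968), Id2 to Mapk7 (0.973), Plekha8 (0.963) and Rarb (0.963) and Bmp4 to Ralgapa2 (0.938), Peak1 (0.935) and Inpp4b (0.928).

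A wider list of 57 pathway genes was followed beside the members. In pre-HE against aEC, 31 were tested, 16 rose and 5 fell, with a median of 0.50 on the log2 scale, where 42.1% of all genes were called and 21.1% rose. The largest rises were Ltbp1, which binds latent TGF-β, at 6.28 (SE 0.36, adjusted p 1.97e-18), and Htra1, a secreted protease that restrains TGF-β family signalling, at 4.98 (SE 0.17, adjusted p 3.19e-26). The largest falls were Tgfbi, a matrix protein induced by TGF-β, at -3.73 (SE 0.56, adjusted p 7.11e-07), and Smad5, which carries the BMP signal, at -1.10 (SE 0.21, adjusted p 5.98e-05). Of 7 tested receptors 3 rose, which were Bmpr1a (4.51), Tgfbr3 (3.82) and Acvr1 (1.02), and Tgfbr2 fell (-0.41). Of 5 tested signal-carrying Smads none rose, and Smad1 fell as well (-0.69). Of 11 tested inhibitors and modulators 8 rose and Bambi, a decoy receptor, fell (-0.32). In this paragraph, Bmpr1a, Tgfbr3, Acvr1, Tgfbr2, Smad1 and Bambi were named after their values were seen. Smad1 stood at 54.3 ± 8.08 CPM in aEC and 37.1 ± 9.30 in pre-HE and Smad5 at 45.3 ± 6.78 and 25.1 ± 7.38 CPM (SD, n = 5).

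In EHT against pre-HE, 29 of the wider list were tested, 23 fell and 1 rose, where 61.6% of all genes were called and 30.0% fell. The rise was that of Tgfb1, at 0.42 (SE 0.13, adjusted p 0.00632). Hey2, a Notch and ALK1 target of arteries, fell most (-8.25, SE 0.40, adjusted p 4.92e-18), then Htra1 (-7.17, SE 0.29, adjusted p 4.81e-20). In aEC against vEC, 34 were tested, 21 were higher in aEC and 7 lower, where 59.7% of all genes were called. Hey1 (3.70, SE 0.14, adjusted p 4.55e-17) and Bambi (0.98, SE 0.05, adjusted p 7.17e-15) were the largest of the former and the co-receptor Tgfbr3 (-1.66, SE 0.15, adjusted p 1.17e-09) and Gata2 (-0.51, SE 0.13, adjusted p 0.00202) the largest of the latter among well-expressed genes. The ALK1 ligands themselves were close to undetected. Gdf2, which encodes BMP9, had 1 UMI and Bmp10 0 UMIs in all 15168 cells, whereas Bmp4 had 6539 and Bmp2 1702.

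The genotype comparison asks whether loss of Meis1 changes the pathway. None of the 9 tested members was called in aEC, none of 9 in pre-HE and none of 8 in EHT (edgeR's quasi-likelihood test, Benjamini-Hochberg adjustment, 5 WT against 3 Mff_Cre libraries), and DESeq2 called none of them either. Of all genes 0% were called in aEC (1000 of 9540 at an unadjusted p under 0.05, and 11 by DESeq2), 0.489% in pre-HE and 0.127% in EHT. At an unadjusted p under 0.05 there were 0 members in aEC, 2 in pre-HE and 0 in EHT. Of all genes, 263 of 3682 in pre-HE and 823 of 8670 in EHT had such a p.

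In pre-HE the 9 members had a median log2 fold change of -0.23 and a range of -0.62 to 0.12, against a median of -0.000630 over all genes. Their median was -0.28 without WT 5, 0.00168 against WT 5 alone and 0.00471 with depth as a covariate. Smad7 measured 168, 158 and 159 CPM in Mff_Cre 1 to 3, below WT 1 to 4 but above WT 5, and differed by -0.62 (SE 0.24, adjusted p 0.521). Without WT 5 it was called at -0.75 (adjusted p 0.0534), and against WT 5 alone the sign turned, to 0.43. Id1 measured 386, 847 and 416 CPM in Mff_Cre, where the second library lay within the WT range and the other two below it, and differed by -0.51 (SE 0.24, adjusted p 0.674). Tmem100 measured 643, 459 and 459.8 CPM, with Mff_Cre 2 and 3 below every WT library and Mff_Cre 1 among them, a difference of -0.29 (SE 0.19, adjusted p 0.828). Smad6 measured 84.1, 90.9 and 106 CPM, below WT 1 to 4 and above the 51.5 CPM of WT 5, a difference of -0.40 (SE 0.29, adjusted p 0.838). With all libraries, without WT 5 and against WT 5 alone, the log2 fold changes were -0.40, -0.52 and 0.86 for Smad6, -0.51, -0.50 and -0.45 for Id1 and -0.29, -0.27 and -0.34 for Tmem100. The same 3 values were -0.22, -0.26 and 0.00 for Eng, 0.12, 0.11 and 0.17 for Acvrl1, -0.13, -0.13 and -0.10 for Bmpr2, -0.23, -0.29 and 0.26 for Id2 and -0.23, -0.28 and -0.02 for Id3. Against WT 5 alone Smad6 and Id2 changed sign, like Smad7, and Eng and Id3 were near 0, while Id1, Tmem100, Bmpr2 and Acvrl1 kept their sign. The WT 5 sum held 16 cells, with 8 UMIs of Smad6, 16 of Id2 and 19 of Smad7, so these changes of sign rest on few counts. Bmp4 did not pass the filter. In the same sums the smooth muscle markers totalled 1114 to 2218 CPM in Mff_Cre against 163 to 863 in WT, with Myh11 at 0 in both, and the erythroid markers 99.0 to 292 against 51.6 to 183 CPM. Their part in these differences was not tested.

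In aEC the fitted differences of the members ran from -0.79 to 0.22. Eng was higher in Mff_Cre with no overlap, at 164, 183 and 169 CPM against at most 162 CPM in WT, but the nearest libraries differed by little and the change was 0.22 (SE 0.11, adjusted p 0.506). Smad6 (-0.79, SE 0.44, adjusted p 0.539) and Smad7 (-0.73, SE 0.47, adjusted p 0.597) had the largest negative values, with Mff_Cre values of 6.79, 6.89 and 2.33 and 29.2, 35.3 and 24.5 CPM inside the WT range or, for 1 library of Smad6, below it. These 2 values rest on WT 4, the highest library for both, since without it they were -0.32 for Smad6 and 0.04 for Smad7. With all libraries, without WT 5 and against WT 5 alone, the values were 0.22, 0.25 and 0.07 for Eng, -0.79, -0.95 and 0.39 for Smad6, -0.73, -0.91 and 0.40 for Smad7 and -0.45, -0.61 and 0.65 for Tmem100. The last 3 changed sign against WT 5 alone, where the WT 5 sum held 9 UMIs of Smad6, 50 of Smad7 and 8 of Tmem100. They were 0.03, -0.02 and 0.23 for Acvrl1, -0.05, -0.12 and 0.18 for Bmpr2, -0.25, -0.23 and -0.36 for Id1, 0.10, 0.14 and -0.07 for Id2 and -0.18, -0.17 and -0.22 for Id3, with Bmpr2 and Id2 changing sign against WT 5 alone and Acvrl1 without it. Bmp4 was too sparse to test. In EHT the range was -0.14 to 0.62, the highest being Id2 at 56.1, 56.3 and 30.5 CPM, a difference of 0.62 (SE 0.38, adjusted p 0.660). The first 2 of these values lay above the WT range and the third inside it. In the same order of fits, the values in EHT were 0.62, 0.78 and 0.09 for Id2, 0.40, 0.18 and 2.03 for Smad6, -0.14, -0.21 and 0.19 for Smad7 and 0.28, 0.26 and 0.38 for Eng, and 0.04, 0.11 and -0.23 for Bmpr2, 0.19, 0.24 and 0.02 for Id1 and 0.30, 0.36 and 0.09 for Id3. Smad7 and Bmpr2 changed sign against WT 5 alone, and the 2.03 of Smad6 rests on 6 UMIs in the WT 5 sum. Acvrl1 had 0.11 and did not pass the filter without WT 5 or against it alone. Tmem100 and Bmp4 did not pass it with all libraries or without WT 5, and had -0.77 and -1.80 against WT 5 alone. WT 4 was the highest WT library for Id2 and Id3 in EHT. Without it their differences were 0.95 (adjusted p 0.407) and 0.60 (adjusted p 0.390), neither called.

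For neither step was a member called in the test of the difference between genotypes itself (library, cell type and the interaction of cell type with genotype in edgeR). For the step from aEC to pre-HE, 0 of 10 members were called and 1 had an unadjusted p under 0.05. Of all genes 0.0527% were called and 465 of 9489 had an unadjusted p under 0.05. DESeq2 called no member. Eng had the lowest p, with a step smaller in Mff_Cre by 0.46 on the log2 scale and an adjusted p of 0.937. The others had Acvrl1 (0.07), Bmpr2 (-0.04), Smad6 (0.45), Smad7 (0.03), Id1 (-0.29), Id2 (-0.33), Id3 (-0.10), Tmem100 (0.03) and Bmp4 (-0.98), positive where the rise was larger in Mff_Cre. For the step from pre-HE to EHT, 0 of 9 were called and 3 had an unadjusted p under 0.05. Of all genes 0.0374% were called and 353 of 8025 had an unadjusted p under 0.05. DESeq2 called no member. The fitted differences, in the direction of a shallower fall in Mff_Cre, were 0.74 (SE 0.24, adjusted p 1.00) for Id1, 0.65 (SE 0.23, adjusted p 1.00) for Id3 and 0.92 (SE 0.43, adjusted p 1.00) for Id2. The others had Eng (0.46), Acvrl1 (-0.10), Bmpr2 (0.08), Smad6 (0.69), Smad7 (0.43) and Tmem100 (0.07). Each member but Bmp4 was higher in pre-HE than in aEC, and lower in EHT than in pre-HE, in 3 of 3 Mff_Cre libraries. Tmem100, for example, went from 6.11, 8.18 and 2.33 CPM in aEC through 643, 459 and 459.8 in pre-HE to 0, 12.5 and 2.77 in EHT.

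**Figure D4:**
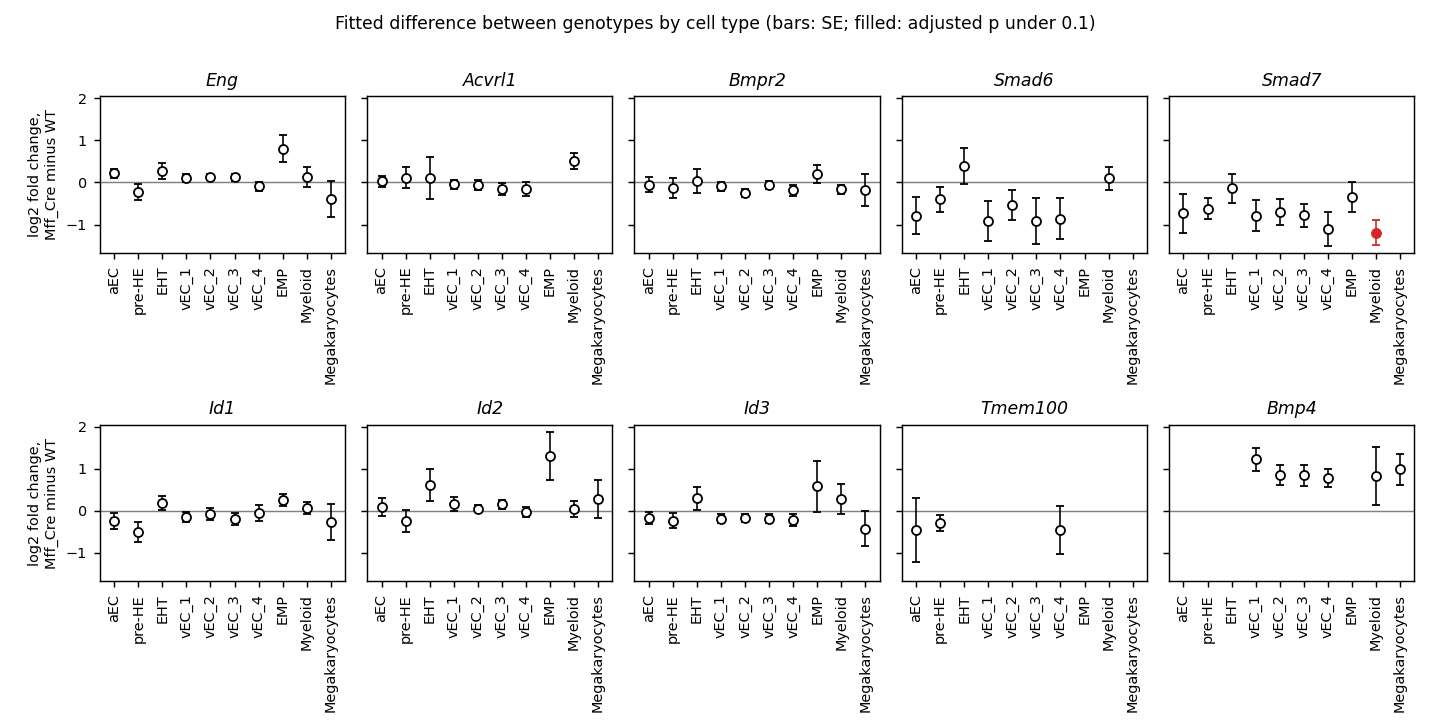
Fitted log2 fold change of each member between genotypes (Mff_Cre minus WT) in each cell type, with bars of 1 SE, for the types where the gene passed the filter. Smad7 in Myeloid cells (-1.19) is the filled point past an adjusted p of 0.1, Bmp4 lies above 0 in each type where it could be tested, and Smad7 lies below 0 in each of its types in this fit of all libraries.

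In the other 7 cell types 1 of 58 tested values of members was called, Smad7 in Myeloid cells, and 13 had an unadjusted p under 0.05. Of all genes, 1473 of 10490 in vEC_1, 1527 of 10669 in vEC_2, 1485 of 10744 in vEC_3 and 895 of 9691 in vEC_4 had such a p. In EMP, Myeloid cells and Megakaryocytes there were 1588 of 9172, 1764 of 11479 and 686 of 7770. Smad7 in Myeloid cells measured 32.2, 33.6, 50.2, 37.6 and 15.8 CPM in WT 1 to 5 and 10.1, 16.3 and 14.9 CPM in Mff_Cre. The change was -1.19 (SE 0.30, adjusted p 0.0861), where 3.26% of all genes were called. WT 5 lay inside the Mff_Cre range and WT 1 to 4 above it. Against WT 5 alone the difference was -0.11, without WT 5 it was -1.35 (adjusted p 0.00219), and it lost its call when any other single library was left out or depth was a covariate. The dissociation response genes had a similar order in these sums, at 618 to 677 CPM in Mff_Cre, 560.0 CPM in WT 5 and 1110.3 CPM or more in WT 1 to 4, and their part was not tested.

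Bmp4 in the vEC clusters divided the libraries, with WT 5 beside Mff_Cre 1 to 3 and apart from WT 1 to 4. In vEC_3 it measured 37.0, 41.3, 45.6, 42.1 and 93.0 CPM in WT 1 to 5 and 93.0, 94.8 and 82.4 CPM in Mff_Cre 1 to 3, from 161 to 641 UMIs per sum. WT 5 lay inside the Mff_Cre range, 2.24 times the mean of WT 1 to 4, while the Mff_Cre mean was 2.17 times that mean. In vEC_4 the values were 69.5, 86.2, 71.9, 65.5 and 142 CPM in WT and 144, 129 and 159.5 CPM in Mff_Cre, with the same placement, and the ratios to WT 1 to 4 were 1.93 for WT 5 and 1.97 for Mff_Cre. In vEC_2 these ratios were 1.82 and 2.06, in vEC_1 2.16 and 2.75, and in Megakaryocytes 2.46 and 2.85.

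With all 8 libraries the Bmp4 difference was 0.84 (SE 0.24, adjusted p 0.209) in vEC_3, 0.77 (SE 0.21, adjusted p 0.300) in vEC_4, 0.85 (SE 0.23, adjusted p 0.212) in vEC_2 and 1.22 (SE 0.27, adjusted p 0.142) in vEC_1, none of them called, where the share of all genes called was 0%, 0%, 0.0187% and 0% in the same order. At an unadjusted p under 0.05 there were 1485, 895, 1527 and 1473 genes, and DESeq2 called 87, 23, 85 and 86 genes, with Bmp4 among them in vEC_2 and vEC_1. Without WT 5 the 4 differences were 1.16 (adjusted p 4.03e-06), 1.03 (adjusted p 1.40e-04), 1.05 (adjusted p 0.00235) and 1.51 (adjusted p 2.12e-04), all called. The shares of all genes given above belong to the fits of all 8 libraries. Those of the fits without WT 5 are not given, so these calls describe Bmp4 only. Against WT 5 alone they were -0.06, 0.03, 0.12 and 0.32. Depth divides the libraries in the same way as Bmp4, and with 1 shallow WT library the genotype and whatever else these 4 libraries share cannot be told apart.

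**Figure D5:**
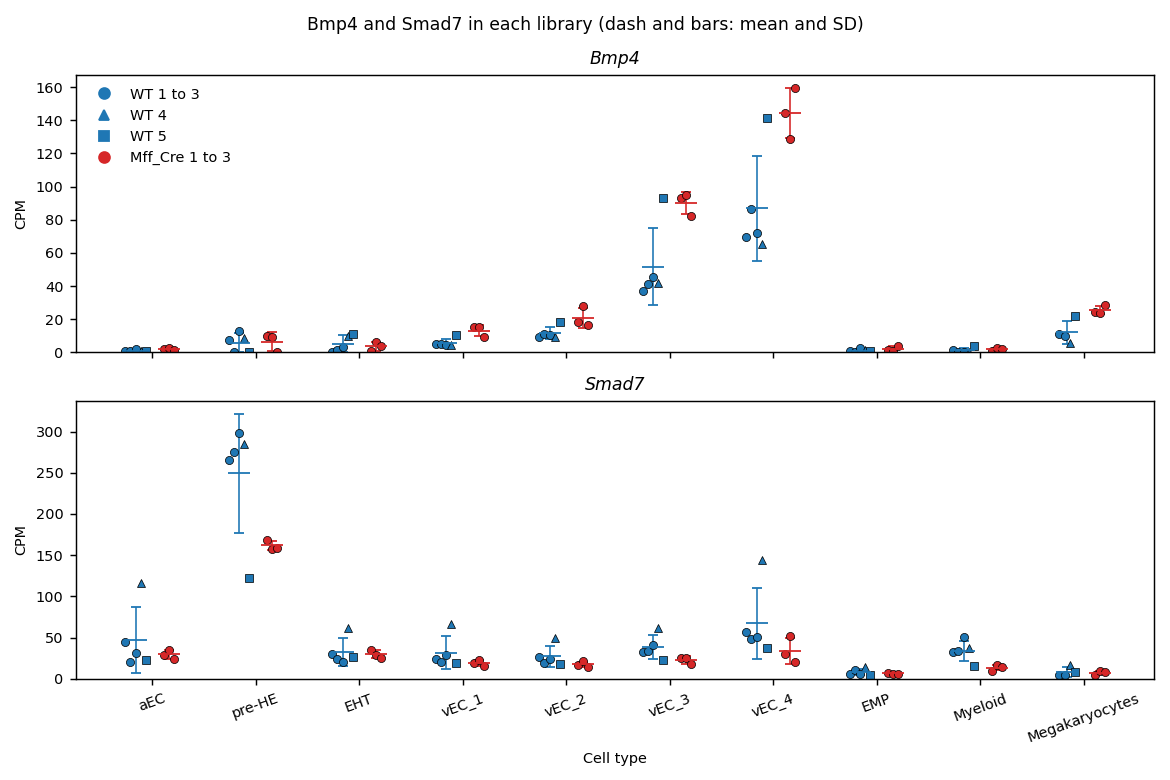
CPM of Bmp4 and Smad7 in each library and cell type (points, blue WT with WT 4 as triangles and WT 5 as squares, red Mff_Cre), with the mean and SD of each genotype. For Bmp4 in vEC_3 and vEC_4 the WT 5 square lies with the Mff_Cre points, and for Smad7 the WT 4 triangle is the highest WT point in aEC, EHT and all vEC clusters.

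Smad7 showed the reverse order in the vEC clusters. In vEC_3 it measured 32.4, 34.1, 40.5, 61.7 and 22.6 CPM in WT and 25.3, 25.3 and 17.5 CPM in Mff_Cre, a difference of -0.78 (SE 0.27, adjusted p 0.260), and in vEC_4 56.5, 48.7, 50.3, 144 and 37.7 CPM and 29.7, 51.4 and 20.8 CPM, a difference of -1.10 (SE 0.41, adjusted p 0.420). Without WT 5 these were -0.91 (adjusted p 0.0338) and -1.25 (adjusted p 0.0925), both called, without WT 4 they were -0.49 (adjusted p 0.396) and -0.52 (adjusted p 0.607), and against WT 5 alone -0.03 and -0.21. Smad7 in vEC_1 (-0.79, SE 0.37, adjusted p 0.359) and vEC_2 (-0.70, SE 0.30, adjusted p 0.314) was -0.23 and -0.33 without WT 4. Smad6 had -0.92 (SE 0.48, adjusted p 0.397) in vEC_1, called without WT 5 at -1.15 (adjusted p 0.0657), but -0.46 without WT 4 and 1.36 against WT 5 alone. In vEC_2, vEC_3 and vEC_4 it had -0.54, -0.91 and -0.86, none called. Id3 was lower in Mff_Cre with no overlap in vEC_1, vEC_2 and vEC_3, by about the same small amount (-0.19, -0.16 and -0.19, with SEs of 0.10 to 0.11 and adjusted p of 0.422, 0.455 and 0.460). In vEC_3, for example, it measured 723, 853, 779, 812 and 697 CPM in WT and 646, 685 and 661 CPM in Mff_Cre, with WT 5 the nearest WT library, and without WT 5 and against it alone the difference was -0.21 and -0.07. Bmpr2 in vEC_2 was also lower without overlap, at 38.4, 34.8 and 35.0 CPM against 40.9 to 48.0 CPM in WT, a difference of -0.25 (SE 0.09, adjusted p 0.263), or -0.24 without WT 5 and -0.25 against it alone. The other values were not called either. They were Eng (0.11), Acvrl1 (-0.04), Bmpr2 (-0.09), Id1 (-0.15) and Id2 (0.16) in vEC_1 and Eng (0.13), Acvrl1 (-0.06), Id1 (-0.07) and Id2 (0.05) in vEC_2. In vEC_3 they were Eng (0.12), Acvrl1 (-0.16), Bmpr2 (-0.07), Id1 (-0.19) and Id2 (0.15), and in vEC_4 Eng (-0.09), Acvrl1 (-0.16), Bmpr2 (-0.19), Id1 (-0.05), Id2 (-0.04), Id3 (-0.22) and Tmem100 (-0.45). Tmem100 passed the filter in vEC_4 and not in vEC_1 to vEC_3.

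In EMP, Id2 measured 4.62, 2.10, 15.0, 20.6 and 2.22 CPM in WT 1 to 5 and 24.4, 24.0 and 17.7 CPM in Mff_Cre, a difference of 1.30 (SE 0.57, adjusted p 0.268). WT 5, at 2.22 CPM from 6 UMIs, lay with WT 1 and WT 2. The difference was 1.08 (adjusted p 0.275) without WT 5, 2.11 (adjusted p 0.0739) without WT 4, whose level was 20.6 CPM, 2.55 (adjusted p 0.648) with depth as a covariate, and 3.30 against WT 5 alone. Id3 in EMP also turned on WT 4, which stood at 52.5 CPM, with 0.58 (SE 0.61, adjusted p 0.664) in all libraries and 1.67 (adjusted p 0.0526) without it. Eng in EMP was higher in Mff_Cre with no overlap, at 15.6, 15.7 and 18.5 CPM against 7.60, 4.66, 11.1, 14.9 and 10.8 CPM, from 20 to 84 UMIs per sum, a difference of 0.80 (SE 0.31, adjusted p 0.209). It was 0.84 without WT 5 and 0.65 against it alone. The remaining values in EMP were Bmpr2 (0.20), Smad7 (-0.34) and Id1 (0.27), and Acvrl1, Smad6, Tmem100 and Bmp4 did not pass the filter. Acvrl1 in Myeloid cells (0.51, SE 0.19, adjusted p 0.229) and Bmp4 in Megakaryocytes (0.98, SE 0.37, adjusted p 0.446) were higher in Mff_Cre without overlap and not called. Bmp4 in Megakaryocytes was called without WT 5 at 1.53 (adjusted p 0.0651), and against WT 5 alone it was 0.26. The other values in Myeloid cells were Eng (0.13), Bmpr2 (-0.16), Smad6 (0.10), Id1 (0.07), Id2 (0.04), Id3 (0.28) and Bmp4 (0.83), of which Bmp4 was called without WT 5 (1.68) and was -0.82 against WT 5 alone. Those in Megakaryocytes were Eng (-0.39), Bmpr2 (-0.18), Id1 (-0.26), Id2 (0.28) and Id3 (-0.42), and the other 4 members did not pass the filter there. In Megakaryocytes 0.206% of genes were called. Of all genes tested in EMP 4.74% were called. Of the wider list, 1 of 20 genes tested in EMP was called, Smad1 at 0.66 (SE 0.17, adjusted p 0.0728), and 4 of 30 in Myeloid cells, which were Tgfb1 (0.50, SE 0.10, adjusted p 0.0392), Skil (-0.89, SE 0.18, adjusted p 0.0410), Tgfbr1 (-0.99, SE 0.26, adjusted p 0.0932) and the ubiquitin ligase Smurf2 (-0.56, SE 0.11, adjusted p 0.0317), the last named after its value was seen. No gene of the wider list was called in the other 8 cell types.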

How the data were processed

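CITE-seq libraries of CD31+ cells from E10.5 AGM (8 libraries, 15168 cells) were used. The authors deposited raw UMI counts per gene and cell, without normalization, and a table of cell types. Per the submitters' processing notes reads were counted with Cell Ranger 3.0.2 on mm10. The authors kept cells with more than 2000 genes and under 10% mitochondrial reads, integrated the libraries in Seurat and named clusters from RNA. Antibody tags were not used here. The 10 members and the wider lists were chosen with earlier results of these data known.

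Counts were summed per library and cell type (at least 10 cells) and fitted over all genes with edgeR 4.0.16 in R 4.3.3 (TMM, filterByExpr, quasi-likelihood F test, two-sided, Benjamini-Hochberg adjustment, calls at an adjusted p under 0.1, the study's threshold). The SE is the log2 fold change divided by the square root of F. WT steps were blocked by library and genotypes compared unblocked. As labels do not say that pools came from separate litters, p-values measure the spread between these pools. The rule for named genes was all 10 members and, of the wider list, up to 2 called rises and 2 falls with a mean log2 CPM of at least 3. Likeness used log2(mean CPM + 1). Scrublet called 118 cells (0.778%) as doublets, which were kept except in an alternative. The fits were checked on simulated counts. Alternatives were RLE normalization, DESeq2 1.42.0, no filter, an adjusted p under 0.05, Bonferroni adjustment, at least 20 cells, thinning to 5000 UMIs, no doublets, each library left out, the replicate number as a block, depth as a covariate and WT 5 as the only WT library. WT 1 to 3 as the only WT libraries, and WT 5 as the only one for step differences, were added after seeing the data, as were ratios of means and medians over members with libraries left out. Total UMIs per library ranged from 20484881 to 79429129, and limits from a count of 0 (3 UMIs) cover counting error only.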

Additional observations from a re-analysis of the deposited data

Results flagged for a closer look

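Within WT, the highest or lowest library was compared with the others for each member and cell type by Dixon's gap criterion at 95%, in 100 groups of 4 or 5 libraries. In 19 a library stood apart, against about 1 in 20 by chance for independent groups, and these groups are not independent since they share libraries. WT 4 accounted for 10 and WT 5 for 7. The former include Tmem100 in EMP (4 UMIs) and the latter Tmem100 in Megakaryocytes (2 UMIs), where the other libraries held 0. With all others at 0 the gap is the whole range, so such a group is flagged by construction. The chance rate does not apply to it.

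WT 4 was the highest for Smad7 in aEC (116 CPM, others 20.6 to 45.1), EHT (61.8, others 20.9 to 30.4), vEC_1 (66.3, others 19.8 to 28.9), vEC_2 (49.6, others 18.0 to 26.6) and vEC_4 (144, others 37.7 to 56.5). It was the highest for Smad6 in vEC_4 (26.4 CPM, others 7.64 to 9.58) and EMP (3.73, others 0.969 to 1.65), for Id3 in EMP (52.5, others 7.27 to 11.5) and for Tmem100 in aEC (21.0, others 0.914 to 3.59) and EMP (0.710 from 4 UMIs, others 0). The dissociation response genes stood at 614 CPM in the aEC of WT 4 and at 560.5 to 618 CPM in that of WT 1 to 3. In EHT and vEC_4, too, WT 4 lay within the range of WT 1 to 3. It lay above them in vEC_1 (521 CPM against 458 to 509) and vEC_2 (496 against 433 to 475) and below them in EMP (835 against 883 to 1493). The part of these genes was not tested.

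WT 5 was the highest for Bmp4 in vEC_1 (10.3 CPM, others 4.41 to 5.36), vEC_2 (18.4, others 9.13 to 11.3), vEC_3 (93.0, others 37.0 to 45.6) and vEC_4 (142, others 65.5 to 86.2) and for Tmem100 in Megakaryocytes (0.832 from 2 UMIs, others 0). It was the lowest for Smad7 in pre-HE (122, others 265 to 298) and Id3 in vEC_2 (719.9, others 782 to 802). Eng was lowest in the aEC of WT 3 (122 CPM, others 153 to 162), and Tmem100 highest in the Myeloid cells of WT 1 (1.96, others 0 to 0.343). What sets these libraries apart was not tested.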

How the results depend on the processing

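In WT, the number of members called was 8 to 10 for pre-HE against aEC, 9 in all cases for EHT against pre-HE and 7 to 10 for aEC against vEC over the alternatives and omissions. The 10 for pre-HE against aEC, with no filter or with at least 20 cells, include Bmp4. The fits without a replicate block gave 9, 9 and 8. For values of single members called in the main analysis, 393 alternatives kept direction and call and 19 lost the call, and no called value changed sign.

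Between genotypes the replicate numbers of the labels were checked for pairing. Of 15 pairs of same-numbered libraries in 5 cell types, 5 had a correlation of deviations over 0.1 (range -0.16 to 0.22), and 9 correlated best with their own number, with replicates 2 and 3 at 0.13 to 0.22 in aEC and vEC_1. As not every pair exceeded 0.1, the numbers were not taken to pair the libraries. The replicate block, which in effect drops WT 4 and WT 5, moved the number of members called from 0 to 1 in aEC, 0 to 2 in pre-HE, 0 to 2 in EHT and 1 to 12 in the other 7 types. Under it Tmem100 in aEC reversed, from -0.45 to 1.74. With WT 1 to 3 as the WT libraries the counts were 1 in pre-HE, 2 in EHT and 10 in the other 7 types without the block, and 2, 2 and 12 with it. Without the block, edgeR called Smad7 in pre-HE (-0.71, adjusted p 0.0751). In EHT it called Id2 (1.44, adjusted p 0.00161) and Id3 (0.83, adjusted p 0.00690). Calls over all genes under these settings are not given, so the counts describe the members and no change particular to them.

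In the other 7 types the count was 3 with DESeq2, 7 with no filter, 2 after thinning, and 0 at an adjusted p under 0.05, with Bonferroni adjustment or with depth as a covariate. Leaving out each library in turn gave 0 to 10 there, the 10 without WT 5, 0 to 1 in pre-HE, where Smad7 was called without WT 5, 0 in aEC and EHT, and 0 to 1 for the difference of the step from pre-HE to EHT, where Id1 was called without Mff_Cre 2. With no filter that last count was 1, Id3. No share of all genes called stands beside these counts either, and the cause of these changes was not tested. The pre-HE sums, of 11 to 87 cells, limit what can be detected there.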
